A study of Mus musculus with 4 samples.

Results

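Cholesterol and fatty acid synthesis was examined here through 35 genes: 17 enzymes that build cholesterol, 5 genes that control the pathway, 11 enzymes that make, elongate or desaturate fatty acids, and the 2 efflux genes Abca1 and Apoe. They were chosen by gene symbol, and all 35 were found among the 56980 genes of the count table. The libraries came from mesenchymal stromal cells (MSCs) of wild-type male C57BL/6J mice of an in-house inbred colony, aged 14 weeks. From the bone marrow of each of 4 mice, 100 cells positive for CD51 and PDGFRa and negative for CD45, Ter119, CD31 and Sca1 were sorted and turned into 1 polyA RNA-seq library. All 4 libraries belong to a single untreated group, so every comparison is between genes or between mice of that group. The study used them as the stromal side of receptor and ligand pairs with bone marrow macrophages, and lipid synthesis was not its subject.

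Cholesterol is assembled in the endoplasmic reticulum from acetyl-CoA by way of mevalonate, isoprenoid diphosphates, squalene and lanosterol. When membrane sterol is low, the carrier Scap brings the transcription factors SREBP1 and SREBP2 to the Golgi, where they are cleaved and released to switch on the enzymes of both pathways. When sterol is plentiful, the Insig proteins hold Scap back in the endoplasmic reticulum. Oxysterol-sensing LXR receptors in turn promote export through the transporter Abca1 and the lipoprotein component Apoe. Marrow stromal cells are known for an adipogenic character, and many express genes of the adipocyte lineage.

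SREBPs are known to work with NF-Y, a factor that binds CCAAT boxes, so the promoters of the genes were read for both kinds of site. The RefSeq promoter table (GRCm38.p6) covers 29 of the 35 genes with 40 windows, each from 250 bases before to 50 bases after a transcription start. CCAAT, searched on both strands, was present in at least 1 window of all 14 cholesterol enzymes that the table covers, of 4 of the 5 control genes, of 5 of 8 fatty acid enzymes and of neither efflux gene. It is held by 41.1% of all 27025 genes that the promoter list covers, and of the 8044 whose median level in these MSCs was above 1 TPM (transcripts per 1000000) by 42.7%. Counted by window, 14 of 17 windows of cholesterol enzymes (82.4%) held a CCAAT, beside 37.4% of all windows. In 13 of the 14 cholesterol enzymes a CCAAT began within 100 bases before the start, which holds for 22% of all genes in the table and for 26.5% of those above the level just given. The exception is Pmvk, whose CCAAT begins 136 bases before the start. The core of the sterol regulatory element, searched as TCACNCCAC on both strands, was found in 1 of the 29 genes, Hmgcs1, and in 1.44% of all genes. It did not overlap a CCAAT. A match of letters is a description of these windows and not a binding site.

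The 250 bases before the start are printed for 4 genes. Hmgcs1 holds both motifs, Ebp is the cholesterol enzyme of highest level in these cells, Fasn stands for the fatty acid enzymes, and Apoe is the highest gene of the 35 and holds neither motif. Each is read 5′ to 3′ on the strand of its gene, none of the bases lies in an annotated exon of GENCODE M21, and capitals mark CCAAT, which reads as ATTGG where it lies on the other strand, and the sterol regulatory element core. In Fasn a pair of CCAAT sites on opposite strands overlap.
Hmgcs1 (chr13:119690101-119690350, plus strand): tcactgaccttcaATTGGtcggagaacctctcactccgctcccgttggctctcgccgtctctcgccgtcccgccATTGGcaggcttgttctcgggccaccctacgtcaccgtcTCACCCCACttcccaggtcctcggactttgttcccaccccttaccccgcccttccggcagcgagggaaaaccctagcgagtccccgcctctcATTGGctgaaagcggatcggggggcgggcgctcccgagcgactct
Ebp (chrX:8193513-8193762, minus strand): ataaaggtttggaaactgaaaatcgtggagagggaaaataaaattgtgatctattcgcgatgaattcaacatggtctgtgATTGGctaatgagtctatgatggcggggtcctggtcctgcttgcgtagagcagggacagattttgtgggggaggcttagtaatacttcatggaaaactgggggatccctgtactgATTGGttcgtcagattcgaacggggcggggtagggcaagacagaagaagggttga
Fasn (chr11:120824548-120824797, minus strand): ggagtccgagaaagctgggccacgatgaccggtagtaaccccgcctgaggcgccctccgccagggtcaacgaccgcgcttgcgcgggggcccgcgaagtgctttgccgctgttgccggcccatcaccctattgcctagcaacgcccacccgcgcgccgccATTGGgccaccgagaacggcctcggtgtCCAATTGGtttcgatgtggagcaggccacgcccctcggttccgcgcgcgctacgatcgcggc
Apoe (chr7:19699189-19699438, minus strand): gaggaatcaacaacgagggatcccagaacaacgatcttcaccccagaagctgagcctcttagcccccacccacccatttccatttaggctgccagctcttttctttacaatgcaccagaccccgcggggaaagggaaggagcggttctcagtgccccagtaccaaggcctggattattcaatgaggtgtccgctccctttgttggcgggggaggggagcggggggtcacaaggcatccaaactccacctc

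**Figure D1:**
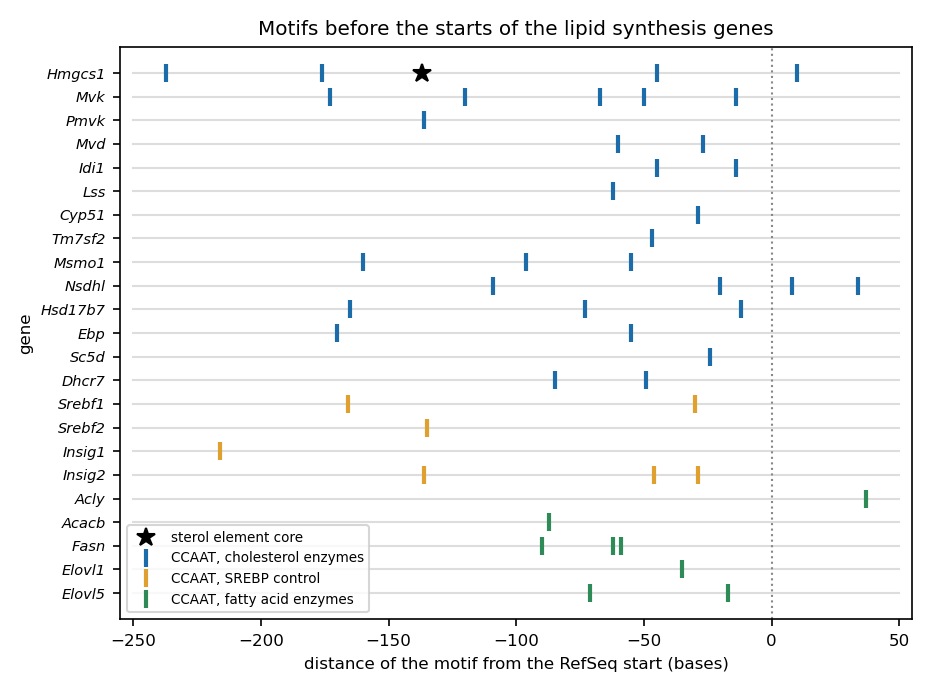
Positions of the motifs in the promoter windows of the genes that hold one. The horizontal axis is the distance in bases of the first base of the motif from the RefSeq start (dotted line), each row is a gene, coloured marks are CCAAT on either strand by gene group, and the star is the sterol regulatory element core. Of the 47 CCAAT sites, 43 lie before the start and 30 within the 100 bases before it.

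The libraries held between 22738604 and 43545349 counts, and mice 1 and 3 were the deeper ones. Levels are given as TPM, which divides the count of each gene by its exon length and scales each library to 1000000, so that genes of different length can be compared. Between 16109 genes (mouse 2) and 18907 genes (mouse 3) had at least 1 count, and mouse 2 stood apart by this low number. The sorted phenotype was checked against its genes. Pdgfra and Itgav (CD51) were above 1 TPM in every mouse, and Ptprc (CD45) and Pecam1 (CD31) reached at most 0.264 and 0.218 TPM. Ly6a (Sca1) was at 0.0472, 8.95, 0 and 11.6 TPM in mice 1 to 4. Its transcript was thus found in mice 2 and 4 despite the Sca1- gate, which reads surface protein and not RNA. The sum of 4 osteoblast markers lay between 77792 and 168024 TPM, and that of 4 endothelial markers was at most 0.235 TPM. In bulk libraries, fewer cells that express a gene and less RNA per cell cannot be told apart.

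Of the 35 genes, 27 had a median above 1 TPM over the 4 mice, the level that the study's methods use for MSCs, and 16 were above 1 TPM in every mouse. Among all genes with a known length the shares were 22.9% for the median and 15.4% for every mouse, and among protein-coding genes 44.2% and 30.1%. The groups differed in how many genes met the stricter condition. It was met by 3 of the 17 cholesterol enzymes, 4 of the 5 control genes, 7 of the 11 fatty acid enzymes and both efflux genes. By the median, 11 of 17, 5 of 5, 9 of 11 and 2 of 2 passed. Ordered by their medians, the genes ran from Apoe at 1008 TPM through Insig2 at 138 TPM and Ebp at 84.5 TPM down to Idi1, Mvd and Acacb, each with a median of 0. Apoe and Insig2, and Insig2 and Ebp, were the only neighbours in this order whose ranges over the mice did not overlap, and the ranges of the other 32 neighbouring pairs did.

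**Figure D2:**
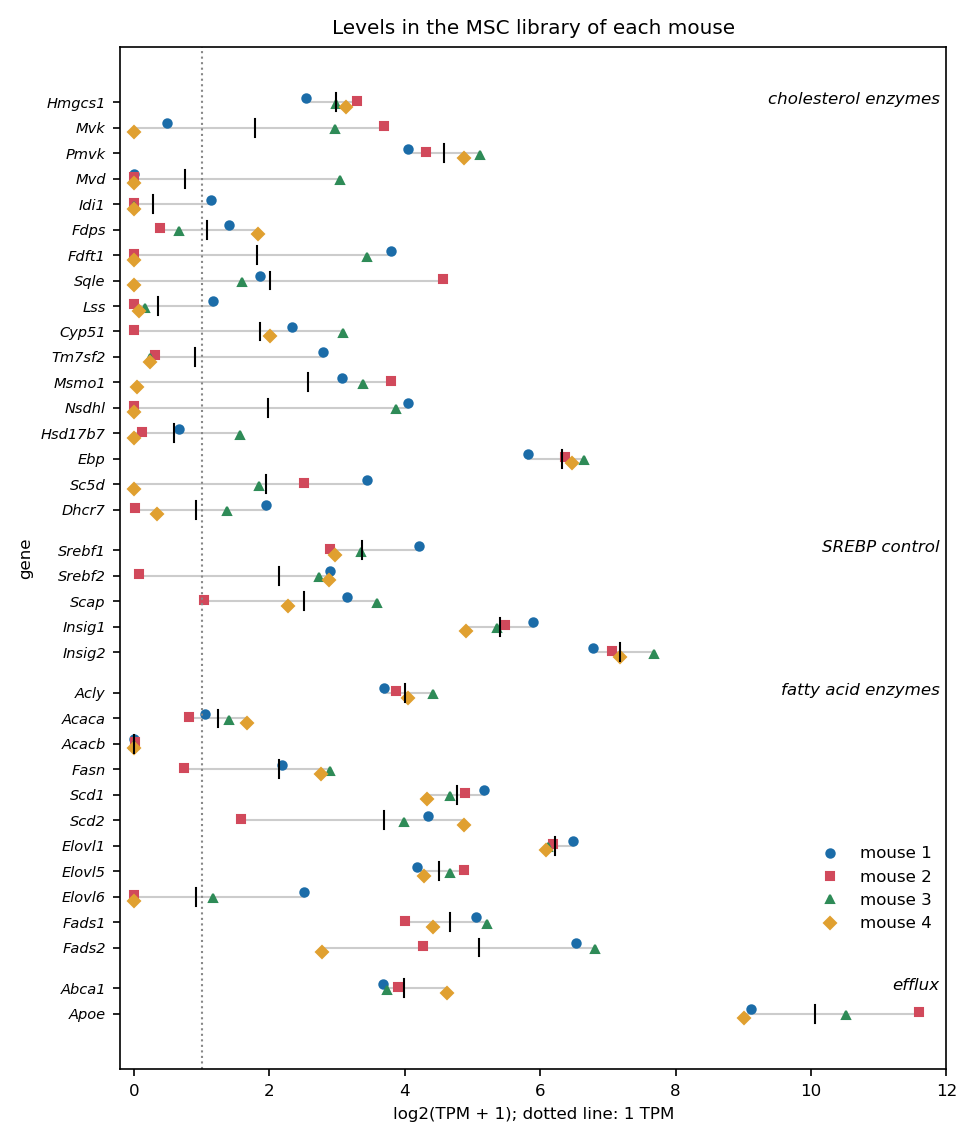
Level of each of the 35 genes in the library of each mouse, as log2(TPM + 1) on the horizontal axis, with genes in rows by group. Coloured symbols are mice, black ticks are the means of the 4 plotted values, and the dotted line is 1 TPM. Insig2, Insig1, Ebp, Elovl1 and Scd1 sit within narrow ranges far above the line, whereas most cholesterol enzymes extend from near 0 in 1 or more mice to well above it.

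Of the 17 cholesterol enzymes, Ebp, Pmvk and Hmgcs1 were above 1 TPM in all mice, and the other 14 were not. Ebp (ENSMUSG00000031168; chromosome X, 8185329 to 8193512 in GRCm38, minus strand, 5 exons), the isomerase that shifts the ring double bond late in the pathway, was at 55.5, 81.6, 98.9 and 87.5 TPM in mice 1 to 4, and averaged 80.9 ± 18.4 TPM (SD, n = 4). Pmvk, the kinase that makes mevalonate diphosphate, was at 15.5, 18.9, 33.5 and 28.3 TPM. Hmgcs1, which condenses acetoacetyl-CoA with acetyl-CoA to open the pathway, was at 4.85, 8.79, 6.90 and 7.77 TPM. For each of these 3 enzymes the highest mouse was within 2.16 times the lowest. Counting error alone would give coefficients of variation (CV, the SD as a share of the mean) of 2.02%, 4.28% and 4.91% for Ebp, Pmvk and Hmgcs1, where 22.8%, 34.5% and 23.6% were measured.

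The remaining cholesterol enzymes were found in some libraries and were at or near 0 in others. Fdft1 (squalene synthase), the first step committed to sterols, had 956, 0, 725 and 0 counts in mice 1 to 4. Nsdhl, a dehydrogenase of C4 demethylation, had 778, 0, 671 and 0 counts. Both genes were thus present in mice 1 and 3 at 9.93 to 15.5 TPM and without a count in mice 2 and 4. Sqle, the squalene epoxidase, had 258, 1392, 194 and 0 counts, or 2.64, 22.6, 2.02 and 0 TPM, so mouse 2 was the highest for this enzyme. A library without a count was set to a floor of 3 counts (mouse 2 for Fdft1 and Nsdhl, mouse 4 for Sqle). Against this floor, the highest mouse was 201.5-fold higher for Fdft1, 164-fold higher for Nsdhl and 431-fold higher for Sqle. These folds allow for counting error of the reads only, since the reads carry no molecular identifiers. They are not a lower bound on the difference between the mice.

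The early kinase and decarboxylase steps were uneven too. Mvk (mevalonate kinase) had 19, 355, 315 and 0 counts. Mvd, which decarboxylates mevalonate diphosphate, had 233 counts in mouse 3 and 0 in mice 1, 2 and 4. Idi1, the isomerase of isopentenyl diphosphate, had 74 counts in mouse 1 and 0 in the other mice. Fdps (farnesyl diphosphate synthase) had 122, 14, 43 and 112 counts and a mean of 1.28 ± 1.04 TPM. Idi1, Fdps and Fdft1 have near-identical copies elsewhere in the transcriptome (at least 95% identity over at least 100 bases), which cover 22.6%, 9.69% and 33.8% of their longest transcripts when genes that overlap their own exons are left out. The longest Fdps transcript has 1 exon, so its share may not hold for the other transcripts of Fdps. Since only uniquely mapped read pairs were counted, the levels of Idi1, Fdps and Fdft1 are uncertain. At their own loci, 18.3% of the exonic bases of Fdft1 lie under Ctsb on the opposite strand, and Fdps shares 26.7% with Gm43738 on the same strand. The processed pseudogene Gm6781, the longest match of Fdft1, had 9, 0, 33 and 0 counts, and Gm13502, that of Idi1, had 8 counts in mouse 1 and 0 in the other mice.

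Among the enzymes that turn squalene epoxide and lanosterol into cholesterol, Msmo1 (C4 methyl oxidase) had the second highest median after Ebp among the steps past squalene, 8.46 TPM, and was at 7.46, 12.9, 9.46 and 0.0315 TPM. It was under the floor of 3 counts in mouse 4 alone, with 2 counts. Cyp51, the lanosterol demethylase, had 314, 0, 572 and 138 counts. Sc5d, a desaturase, had 842, 254, 219 and 0 counts. Lss, Tm7sf2, Hsd17b7 and Dhcr7 are, with Mvd and Idi1, the cholesterol enzymes whose median did not exceed 1 TPM. Lss (lanosterol synthase) had 235, 0, 22 and 6 counts, and Tm7sf2, a C14 reductase, had 461, 12, 14 and 8. Hsd17b7, the 3-ketosteroid reductase, had 53, 5, 174 and 0 counts, and Dhcr7, which reduces 7-dehydrocholesterol, had 292, 1, 159 and 16. Each of these last 4 genes had its highest count in mouse 1 or mouse 3. Tm7sf2 shares 12.1% of its exonic bases with Vps51 on the same strand.

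**Figure D3:**
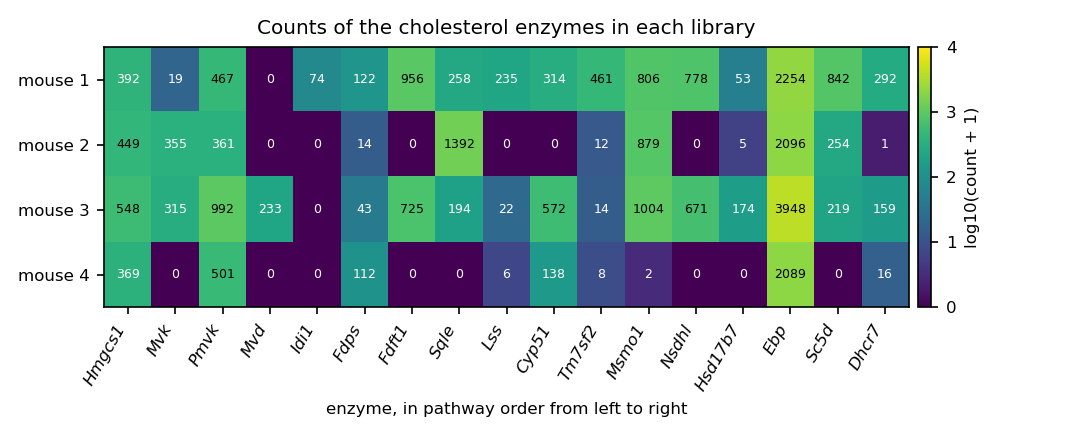
Counts of the 17 cholesterol enzymes (columns, in pathway order from left to right) in the library of each mouse (rows). The colour is log10(count + 1) and the number in each cell is the count. Hmgcs1, Pmvk and Ebp are filled in every row, and the rows of mice 2 and 4 hold most of the cells at 0.

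Counted by mouse, 14, 7, 13 and 5 of the 17 cholesterol enzymes were above 1 TPM in mice 1 to 4, shares of 82.4%, 41.2%, 76.5% and 29.4%. The corresponding shares of all protein-coding genes were 43.3%, 38.8%, 46.5% and 42.6%. The cholesterol enzymes therefore spread over a wider range of shares between mice than protein-coding genes did. A share of 17 genes can move more than one of 21922, and these sets were not matched for level. Whether the wider range is a trait of the enzymes was not tested. The enzymes above 1 TPM in mouse 2 were Hmgcs1, Mvk, Pmvk, Sqle, Msmo1, Ebp and Sc5d. Those in mouse 4 were Hmgcs1, Pmvk, Fdps, Cyp51 and Ebp, so that mice 2 and 4 shared Hmgcs1, Pmvk and Ebp. At or under 3 counts were 1, 7, 1 and 9 of all 17 cholesterol enzymes. Of the 11 with a median above 1 TPM, these were Fdft1, Cyp51 and Nsdhl in mouse 2. In mouse 4 they were Mvk, Fdft1, Sqle, Msmo1, Nsdhl and Sc5d, and in mice 1 and 3 there were none. Among all genes with such a median, 4.13%, 12.2%, 2.54% and 7.93% were at or under 3 counts in mice 1 to 4. The counts of every library were also scaled to the total of the smallest one, an alternative chosen after seeing the data. The numbers for the 17 enzymes were again 1, 7, 1 and 9. Of the 140 values of the 35 genes, 24 were at or under 3 counts with and without the scaling. Scaling leaves 0 at 0 and mouse 4 unchanged. In mice 1 and 3 the lowest enzyme counts above 3, Mvk at 19 and Tm7sf2 at 14, became 9.92 and 7.45. The sameness was thus largely fixed in advance, and the part of depth was not tested. In mice 1 and 3, where more enzymes were found, the erythroid markers were also higher, with a sum of 4980 and 1708 TPM against 35.04 and 358 TPM in mice 2 and 4. Alas2, which defines erythroid cells, was at 19.99 and 7.42 TPM in mice 1 and 3 and had 0 counts in mice 2 and 4. All 6 erythroid markers passed the median of 1 TPM, and their part in the levels of the cholesterol enzymes was not tested. In the headers of the count table the library numbers of mice 1 and 3 also lie together and before those of mice 2 and 4, so that the order of the libraries, whose meaning is not given in the sources used here, and this difference between the mice cannot be told apart.

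Values at or near 0 beside far larger counts were common among all genes of this level. Of the 8584 genes with a mean from 1 to 10 TPM, 49.5% were at or under 3 counts in at least 1 mouse, and of the 12 cholesterol enzymes in that class 9 were. From 10 to 100 TPM 8.9% of 4673 genes were, and 0 of the 12 genes of the lipid set in that class. The median CV of the 17 genes of the set with a mean from 1 to 10 TPM was 97.4%, beside 89.6% for all genes of the class. In the class from 10 to 100 TPM it was 31.5% for the 12 genes of the set and 42.4% for all genes.

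Summed over the 17 enzymes, the cholesterol arm came to 142, 162, 203 and 130 TPM in mice 1 to 4 and averaged 159 ± 32.1 TPM (SD, n = 4). Ebp supplied 39.1%, 50.4%, 48.7% and 67.5% of these sums. Without it the other 16 enzymes summed to 86.6, 80.4, 104 and 42.2 TPM, with mouse 4 the lowest.

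Of the genes that control the pathway, the Insig genes were the highest. Insig2 (ENSMUSG00000003721; chromosome 1, 121304353 to 121332589, minus strand) was at 109, 133, 205 and 144 TPM, a mean of 148 ± 40.9 TPM, above the medians of 98.6% of genes with a length. Insig1 (ENSMUSG00000045294; chromosome 5, 28071363 to 28078662, plus strand), itself a known target of SREBP, was at 58.4, 43.6, 39.9 and 28.8 TPM. The ranges of both genes did not overlap, and Insig2 was higher in 4 of 4 mice. The difference of Insig1 from Insig2 within a mouse was -1.77 ± 0.68 in log2(TPM + 1) (SD, n = 4), larger than its spread between mice. With 4 mice an exact two-sided permutation test that flips signs within mice cannot go below p = 0.125, which was the value here, and the Benjamini-Hochberg adjusted p over the 8 pairs was 0.167.

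The factors these proteins hold back were present at lower levels. Srebf1, which encodes the SREBP1 factors that favour fatty acid genes, was at 17.6, 6.46, 9.27 and 6.85 TPM. Srebf2, whose product favours cholesterol genes, was at 6.44, 0.0500, 5.62 and 6.36 TPM, with 814, 4, 698 and 472 counts. It was therefore close to the floor of 3 counts in mouse 2 and even in the other 3 mice. Srebf2 was below Srebf1 in 4 of 4 mice. The mean difference in log2(TPM + 1) was -1.22 ± 1.18 (p = 0.125 in the exact permutation test, adjusted p = 0.167), and it was -0.68 without mouse 2. Scap, the sterol-sensing escort, was at 7.88, 1.05, 11.03 and 3.82 TPM. Mouse 2 was the lowest for Srebf1, Srebf2 and Scap, and not for the Insig genes.

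The other control genes of a list written with results of these data known were all found. All 9, among them the activating proteases Mbtps1 and Mbtps2 and the ubiquitin ligase Rnf139, had a median above 1 TPM, and 5 were above 1 TPM in every mouse. Of protein-coding genes, 44.2% had such a median and 30.1% were above 1 TPM in every mouse. Mbtps1, which makes the first cut in SREBP, had a median of 15.2 TPM.

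Of the 11 fatty acid enzymes, 7 were above 1 TPM in every mouse, Acly, Scd1, Scd2, Elovl1, Elovl5, Fads1 and Fads2. The sum of the arm was 305, 179, 310 and 183 TPM in mice 1 to 4 and averaged 244 ± 72.9 TPM (SD, n = 4). It exceeded the sum of the cholesterol enzymes in every mouse, by 2.15, 1.11, 1.53 and 1.41 times. Mice 1 and 3 were the higher ones, and the CV of the sum was 29.9%, beside 20.2% for the cholesterol enzymes. Acly, which cleaves citrate to supply cytosolic acetyl-CoA to both arms, was at 11.99, 13.6, 20.4 and 15.6 TPM. Acaca, the cytosolic acetyl-CoA carboxylase, was at 1.08, 0.763, 1.65 and 2.18 TPM, and Fasn, the synthase that builds palmitate, at 3.56, 0.673, 6.48 and 5.78 TPM. Mouse 2 was the lowest for Acaca and Fasn and was the only mouse below 1 TPM for either. The processed pseudogene Gm5182 matches 64.3% of the longest Acaca transcript, so reads from that part may have been discarded as not unique, and the level of Acaca is uncertain.

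Acacb, the mitochondrial carboxylase that restrains fatty acid oxidation, had 0, 1, 0 and 0 counts, and 3 counts would correspond to 0.0280 TPM in mouse 2. Acaca was higher in 4 of 4 mice, with a mean difference in log2(TPM + 1) of 1.23 ± 0.38 (p = 0.125 in the exact permutation test, adjusted p = 0.167). With a pseudocount of 0.1 in place of 1 this difference was 3.79.

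Of the stearoyl-CoA desaturases, which make oleate and palmitoleate, Scd1 was the steadier. Scd1 (ENSMUSG00000037071; chromosome 19, 44394455 to 44407879, minus strand, 6 exons) was at 34.9, 28.8, 24.5 and 19.1 TPM. Its neighbour Scd2 (ENSMUSG00000025203; chromosome 19, 44293674 to 44306864, plus strand, 6 exons) was at 19.3, 1.99, 14.9 and 28.4 TPM. The order of the genes differed between mice, with Scd1 higher in mice 1, 2 and 3 and Scd2 higher in mouse 4. The difference of Scd2 from Scd1, -1.07 ± 1.62 in log2(TPM + 1), was smaller than its spread (p = 0.25 in the exact permutation test, adjusted p = 0.286), and without mouse 2 it was -0.32. A stretch of 11.4% of the longest Scd2 transcript is near-identical to Scd1, so part of the Scd2 reads may have been left uncounted. Scd3 and Scd4, the other desaturases of this family in the mouse, both had medians under 1 TPM.

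The delta-6 and delta-5 desaturases Fads2 and Fads1, which convert essential fatty acids to polyunsaturated products, lie close together on chromosome 19 on opposite strands, from 10062765 to 10101746 and from 10182888 to 10196877. Fads1 was at 32.05, 15.04, 36.2 and 20.4 TPM. Fads2 was at 91.4, 18.3, 112 and 5.84 TPM, so it was high in mice 1 and 3 and low in mice 2 and 4, a range of 19.1 times where Fads1 spanned 2.41 times. Fads2 was above Fads1 in mice 1, 2 and 3 and below it in mouse 4. The mean difference, 0.43 ± 1.51 in log2(TPM + 1), was smaller than its spread (p = 0.625 in the exact permutation test and after adjustment) and was 1.12 without mouse 4, 0.08 without mouse 1 and 0.04 without mouse 3. Without a length correction it was -0.11, because the merged exons of Fads1 are longer. Fads3, a relative, had a median of 25.2 TPM.

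Of the elongases that lengthen fatty acyl chains, Elovl1 was the most even gene of all 35. Elovl1, which acts on saturated and monounsaturated very long chains, was at 88.7, 71.8, 68.1 and 67.0 TPM, a mean of 73.9 ± 10.1 TPM (SD, n = 4) and a CV of 13.6%. Elovl5, which acts on polyunsaturated chains, was at 17.2, 28.4, 24.5 and 18.5 TPM. Elovl6, which extends palmitate to stearate, had 529, 0, 139 and 0 counts, or 4.68, 0, 1.25 and 0 TPM. Like Fdft1 and Nsdhl, it was found in mice 1 and 3 alone. The ranges of the 3 genes did not overlap. Elovl5 was below Elovl1 in 4 of 4 mice, by -1.71 ± 0.44 in log2(TPM + 1), and Elovl1 and Elovl5 were above Elovl6 by 5.30 ± 1.04 and 3.59 ± 1.39, in 4 of 4 mice each. Each of these 3 differences was larger than its spread, with an exact permutation p of 0.125 and an adjusted p of 0.167. Because Elovl6 was at 0 in mice 2 and 4, the differences from it depend on the pseudocount, and with 0.1 in place of 1 they were 7.19 for Elovl1 and 5.43 for Elovl5. Copies in other genes match 15.2% of the longest Elovl6 transcript, and Cdc20 lies over 1.94% of the exonic bases of Elovl1 on the opposite strand.

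**Figure D4:**
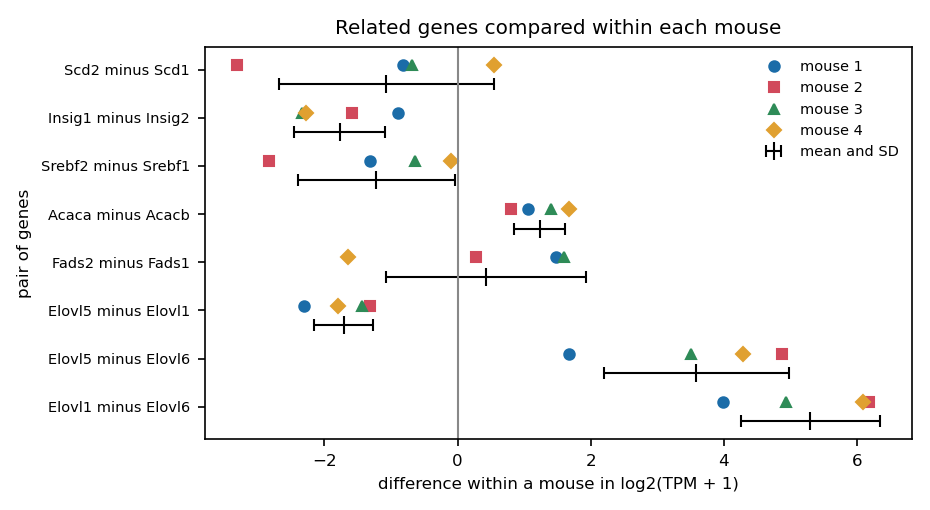
Differences between related genes within each mouse. The horizontal axis is the difference in log2(TPM + 1), coloured symbols are mice, and black bars are the mean and SD over the 4 mice. All symbols lie on 1 side of 0 for 6 of the 8 pairs, and on both sides for Scd2 minus Scd1 and Fads2 minus Fads1.

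The list described above held 25 other genes of fatty acid synthesis and activation. Of these, 14 had a median above 1 TPM and 11 were above it in every mouse, beside 44.2% and 30.1% of protein-coding genes. Tecr, the reductase that completes each elongation cycle, had the highest median, 349 TPM, and was at 489, 288, 353 and 344 TPM. Slc25a1, which exports citrate from mitochondria, followed with a median of 42.5 TPM. Of the 6 other cholesterol enzymes 4 passed, with the highest medians for Ggps1 (geranylgeranyl diphosphate synthase), at 18.8 TPM, and Lbr, a C14 reductase of the nuclear envelope, at 9.56 TPM. Idi2, a paralogue of Idi1, had 0 counts in every mouse. These lists were written with results of these data known, and their counts carry no test.

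Apoe (ENSMUSG00000002985; chromosome 7, 19696109 to 19699188, minus strand, 4 exons), the lipoprotein component that carries cholesterol out of cells, was the highest of the 35 genes in every mouse. It had 20915, 73778, 53952 and 11393 counts, or 556, 3102, 1460 and 516 TPM, a mean of 1408 ± 1210 TPM (SD, n = 4). Without mouse 2 the mean was 844 TPM. The median, 1008 TPM, lay above those of 99.8% of genes with a length, and mouse 2 was 6.02 times mouse 4. Counting error would give a CV of 0.512%, where 85.9% was measured. Mouse 2 was the highest and mouse 3 the second highest for Apoe. The same held for the niche stromal marker Cxcl12, at 983, 4329, 2224 and 1079 TPM. It also held for the adipocyte marker Adipoq, at 184, 635, 399 and 185 TPM, and for Nes, Cebpa and Pparg. The other listed markers of these cells differed. Lepr, Foxc1, Ebf3 and Lpl were highest in mouse 2 and second highest in mouse 4, and Prrx1 was lowest in mouse 2. The 4 adipocyte markers summed to 199, 962, 439 and 234 TPM, of which 3 passed the median of 1 TPM and 2 were above 1 TPM in every mouse. The niche stromal markers summed to 1052, 4534, 2316 and 1194 TPM, most of it from Cxcl12. Macrophages are known to express Apoe strongly. Their markers C1qa, Adgre1 and Csf1r were each at 0 counts in all 4 mice, Mrc1 had 4, 18, 10 and 41 counts, and Cd68 had 11, 0, 144 and 5 counts. None of them had a median above 1 TPM, and all 5 macrophage markers summed to at most 6.72 TPM. The part of the stromal, adipocyte and macrophage markers in the level of Apoe was not tested.

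Abca1, the transporter that loads cholesterol onto apolipoproteins, was at 11.8, 13.9, 12.4 and 23.8 TPM, a mean of 15.5 ± 5.61 TPM, with mouse 4 the highest. It did not share the mouse order of Apoe. Of the 15 listed genes of sterol uptake, transport and LXR control, 11 had a median above 1 TPM and 8 were above it in every mouse. Among protein-coding genes these shares were 44.2% and 30.1%. Npc2, the lysosomal cholesterol carrier, had the highest median, 134 TPM, and Nr1h2 (LXRb) followed with 28.96 TPM. Nr1h3 (LXRa) was at 6.46, 32.1, 15.05 and 9.47 TPM, with mouse 2 the highest and mouse 3 the second highest, as for Apoe. It was added to the named genes after its values were seen. Nr1h2 did not share this order, at 74.8, 12.9, 38.7 and 19.2 TPM with mouse 2 the lowest. Abcg1 and Apoc1 had 0 counts in every mouse, and Stard4 had a median of 0.161 TPM.

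Of 12 listed genes of triglyceride storage and uptake, 7 had a median above 1 TPM, which 44.2% of protein-coding genes had. Above 1 TPM in every mouse, as were 30.1% of protein-coding genes, were 2 of the 12, Plin2, the coat protein of small lipid droplets, and Pnpla2, the main triglyceride lipase. Plin2 was at 16.98, 3.07, 19.99 and 23.5 TPM and Pnpla2 at 46.0, 2.11, 9.72 and 9.48 TPM, with mouse 2 the lowest for both. The 5 genes that did not pass were Agpat2, Dgat2, Plin1, Cidec and Fabp4. Plin1 and Cidec, coat proteins of the large droplets of mature adipocytes, had 0 counts in every mouse, and Fabp4 had 77, 1, 0 and 0 counts. Mouse 2, with the highest sum of the adipocyte markers, thus had the lowest sum of the storage genes, 15.98 TPM, beside 54.5 to 77.9 TPM in the other mice.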

How the data were processed

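Gene counts of 4 wild-type MSC libraries were used, 1 per mouse. Per the labels, the authors made them with bcl2fastq 2.20.0, STAR 2.7.10 and featureCounts of Subread 1.6.5 on GRCm39, and deposited raw counts per gene. The study's methods name no strand option, so overlapping genes on opposite strands cannot be told apart. Library totals ran from 22738604 to 43545349 counts, and the floor of 3 counts and the counting CV cover counting error only, since the reads carry no molecular identifiers.

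TPM was computed with Python 3.11.15, numpy 2.4.6 and pandas 2.3.3 from merged exon lengths of GENCODE M21 (GRCm38, another build than the counts), matched by gene ID for 52125 of 56980 genes. For 4855 genes no length was matched, and they have no TPM. Coordinates are GRCm38. A gene passed when its median TPM exceeded 1. Related genes were compared within mice on log2(TPM + 1) by flipping the signs of the 4 differences (exact permutation test, two-sided; scipy 1.17.1), with Benjamini-Hochberg adjustment over 8 pairs. TMM factors came from edgeR 4.0.16 in R 4.3.3. No model was fitted across genes, because there is 1 group. The TPM calculation and the cutoff were tested on simulated data. Near-identical copies were matches of at least 95% identity over at least 100 bases to transcripts of other genes, without those that share exonic bases with the gene. Promoters came from RefSeq (GRCm38.p6). The labels name no batch. The library numbers in the file headers place mice 1 and 3 together and mice 2 and 4 together, and their meaning is not given in the sources used here.

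All genes of the set are named, with per-mouse values for related pairs, the highest, lowest and most variable enzymes, the efflux genes, genes that did not pass and genes with an outlying mouse. Of other lists the genes of highest median are named. Some single list genes are not reported here. The genes and lists were chosen with earlier results of these data known. Alternatives were longest transcript lengths, no length, other scalings, a pseudocount of 0.1, cutoffs of 0.5 and 5 TPM, the mean over mice, at least 10 counts in every mouse, and leaving out each mouse. Protein identity between related genes was not computed here.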

Additional observations from a re-analysis of the deposited data

Results flagged for a closer look

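The gap between 1 mouse and its nearest neighbour was taken as a share of the range of the 4 mice. For 7 of 45 quantities tested, this share exceeded Dixon's 95% critical value. Chance gives about 1 such case in 20 for independent, normally distributed values. That rate does not hold here, since a gene with counts in 1 mouse alone always gives a share of 1. The 7 cases can therefore not be read as more than chance would give. The share of the range was 1 for Mvd, present in mouse 3 alone, and 1 for Idi1, present in mouse 1 alone. It was 0.988 for Tm7sf2 and 0.905 for Lss, both highest in mouse 1, and 0.883 for Sqle, highest in mouse 2. For Srebf2, where mouse 2 was the lowest, it was 0.872. For Acacb it was 1, which rests on 1 count in mouse 2. Of these 7 genes, 5 are cholesterol enzymes, which make up 17 of the 35 genes of the set. The share of all genes that this rule would flag was not computed, so the count is not a result about these enzymes. The cause was not tested.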

How the results depend on the processing

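The number of genes with a median above 1 TPM, 27, was 19 to 31 under the alternatives and 24 to 28 when 1 mouse was left out, and the number above 1 TPM in every mouse, 16, was 13 to 20 and 16 to 20. The summed level of the cholesterol enzymes, 159 TPM, was 196.8 counts per 1000000 without a length correction and 265 TPM when mitochondrial genes and the 10 highest genes were left out of the scaling, and 145 to 169 TPM without 1 mouse. The sum of the fatty acid enzymes, 244 TPM, was 406 counts per 1000000 and 403 TPM under the same settings, and 222 to 266 TPM without 1 mouse. Leaving the highest genes out of the scaling raises every other level by construction. Without a length correction the values are counts per 1000000, another unit than TPM, so these too differ by construction. Fads2 minus Fads1 turned from 0.43 to -0.11 without length, and the other 79 alternative values of the pairs kept their sign. Without mouse 2, Scd2 minus Scd1 was -0.32 and Srebf2 minus Srebf1 was -0.68. With a pseudocount of 0.1, Srebf2 minus Srebf1 was -1.93. The mean level of a gene moved by more than its SD in 38 cases and by less in 312. Of the 38 cases, 21 were without length, where the unit differs. No paired analysis was possible because all 4 samples form 1 group, so that no sample of another group shares a mouse number. The pairs above are genes within a mouse. With 4 mice no exact p can go below 0.125. The floor of 3 counts was a chosen setting and not a measured limit of detection.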
